A study of Mus musculus with 8 samples.

Results

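Runx1, Runx2 and Runx3 encode the DNA-binding subunits of core-binding factor, Cbfb encodes the partner subunit that all of them share, and Satb1 encodes an organiser of chromatin loops. They are 5 of the 15566 genes in the count table of this study and were found there by gene name. They were chosen because Runx2 and Satb1 are lower in the COMMD10-deficient libraries, so their difference between genotypes is given as a description, with no test. All 5 passed the filter on low counts, as did 12938 genes in all.

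The RNA came from Ly6C-high monocytes, the classical monocytes that leave the bone marrow for blood and inflamed tissue, sorted from femur and tibia of untreated male C57BL/6 mice aged 8 weeks. In 4 libraries the genotype is LysMDCommd10: the floxed Commd10 gene, which encodes an adaptor of endosomal protein trafficking, is deleted by a Cre recombinase that the lysozyme M gene drives in monocytes, macrophages and neutrophils alike. The 4 control libraries came from weight-matched Commd10fl/fl littermates, which carry the floxed gene as well. The series asks, by its title, about monocytes that take on neutrophil traits. The sort took Ly6C-high, live CD45+ CD11b+ CD115+ CD117- Ly6G- cells.

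RUNX proteins hold DNA through a conserved Runt domain, and CBFB, which does not touch DNA itself, raises their affinity and protects them from breakdown. Bound together they recruit activators such as p300 or repressors of the TLE family. RUNX1 is needed for blood stem cells to form and for myeloid and megakaryocyte maturation, RUNX3 acts in CD8 T cells, innate lymphoid cells and dendritic cells, and RUNX2, known best as the master factor of bone-forming cells, is abundant in plasmacytoid dendritic cells. SATB1 binds AT-rich DNA, ties distant sites together and is known best for its part in T cell development.

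Every RUNX gene is transcribed from a distal and a proximal promoter, and the distal ones share a stretch of sequence, shown here because it holds RUNX motifs in the very genes that encode RUNX proteins. The longest run common to RefSeq promoter windows of all 3 genes (build GRCm38.p6; 250 bases before to 50 after an annotated start) was 18 bases long, in capitals below. Each line gives 30 bases, 5′ to 3′ on the strand of the gene.
Runx1, chr16:92826025-92826054, minus strand: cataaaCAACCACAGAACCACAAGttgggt
Runx2, chr17:44814583-44814612, minus strand: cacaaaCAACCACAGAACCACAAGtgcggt
Runx3, chr4:135120503-135120532, plus strand: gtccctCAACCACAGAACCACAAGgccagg

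With the RefSeq start of each window as 1, the shared run began at position 27 in Runx1, 22 in Runx2 and -136 in Runx3. GENCODE M21 starts Runx1 and Runx2 further upstream, at 92826149 and 44814797, so a negative position there need not be untranscribed. In Runx1 it lies in an untranslated exon and in Runx2 its surroundings hold untranslated and coding sequence, while in Runx3 no annotated exon of the gene covers it. Of 32851 windows in the table, 4 held the run on either strand: these 3 and that of Gm16225, whose window on the other strand overlaps the one of Runx3. The run holds ACCACA, the reverse complement of the RUNX motif TGTGGT, at 2 places.

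The motif was searched as TGTGGT or TGCGGT on both strands, with overlapping matches counted. At least 1 match was present in 22.4% of all windows, at least 2 in 2.9% and at least 4 in 0.06%. The distal windows of Runx1 and Runx3 each had 2 matches and that of Runx2 had 4. In Runx1 and Runx3 these are the 2 places inside the shared run, so they are not separate from it. Runx2 has the same 2 and another at position 40, next to the run. The fourth match of Runx2, in capitals, began at position -80 from the RefSeq start, where GENCODE M21 places an untranslated exon of Runx2.
Runx2, chr17:44814690-44814719, minus strand: gtgaggtcacaaACCACAtgattctgtctc

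The proximal windows of Runx1 and Runx3, the only window of Cbfb and all 5 windows of Satb1 had 0 matches, which says only that these letters are not there. The bases upstream of the outermost Satb1 start, shown because Satb1, low like Runx2 in the deficient libraries, has no match in any window, read as follows.
Satb1, chr17:51833291-51833540, minus strand: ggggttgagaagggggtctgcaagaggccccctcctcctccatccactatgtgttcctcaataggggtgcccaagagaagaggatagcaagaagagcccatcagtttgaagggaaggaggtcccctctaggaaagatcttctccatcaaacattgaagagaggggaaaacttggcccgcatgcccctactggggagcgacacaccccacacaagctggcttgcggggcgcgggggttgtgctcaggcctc

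Across the whole table, at least 1 window held it in 26.5% of the lower genes and 28.9% of the higher genes past the threshold, against 24.8% of tested genes with a window. These shares are descriptions, from 49, 38 and 9379 genes.

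Total counts per library ranged from 14231121 to 31040255, which makes 1 count worth 0.0322 to 0.0703 CPM (counts per 1000000 in that library). Over all genes, 113 passed an adjusted p of 0.05 with edgeR's quasi-likelihood test, or 0.873% of 12938, of which 46 (0.356%) rose and 67 (0.518%) fell, and the median log2 fold change was 0.001. The number past the threshold was 1, 3 or 8 without control 1, 3 or 4, 29 or 2 without deficient 2 or 4, and 298, 522 or 479 without control 2, deficient 1 or deficient 3. Commd10 itself was at 27.5 to 31.0 CPM in control and 19.6 to 24.4 CPM in deficient libraries (edgeR adjusted p = 0.0292), while Cre had 499 to 987 counts in the deficient libraries and 0 in each control, where the limit that 0 counts allow was at most 0.211 CPM. Whether each library is a separate mouse is left unsaid in the labels, and the p-values then measure only how these samples spread, which may be technical.

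Runx2 and Satb1, the members for which the set was chosen, were lower in all 4 deficient libraries. Runx2 (ENSMUSG00000039153, GRCm38 chromosome 17, 44495987 to 44814797, minus strand) had 469, 363, 264 and 576 raw counts in control libraries 1 to 4, and in deficient libraries 1 to 4 it had 456, 425, 243 and 431. Scaled by TMM factors, these were 18.3, 16.4, 18.6 and 18.7 CPM in the controls and 14.8, 14.1, 14.2 and 14.4 CPM in the deficient libraries. The groups did not overlap, with control 2 the lowest of the controls and still above every deficient library. The mean was 18 ± 1.08 CPM in the controls and 14.4 ± 0.309 CPM in the deficient libraries (SD, n = 4 each), which is 80.1% of the former, or -0.32 on the log2 scale (SE 0.07).

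Satb1 (ENSMUSG00000023927, GRCm38 chromosome 17, 51736187 to 51833290, minus strand) had 431, 345, 247 and 507 raw counts in control libraries 1 to 4, and in deficient libraries 1 to 4 it had 404, 378, 206 and 361. In CPM this was 16.8, 15.6, 17.4 and 16.4 in the controls and 13.1, 12.6, 12.0 and 12.1 in the deficient libraries. The groups stood apart here too, and control 2 was again the lowest control. Satb1 was at 16.6 ± 0.755 CPM against 12.5 ± 0.510 CPM (SD, n = 4 each, controls given before deficient), or 75.3% of the controls (-0.41 on the log2 scale, SE 0.07). In bulk RNA, fewer cells that express a gene and less RNA per cell cannot be told apart.

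Among all 12938 tested genes, 12.6% had groups that did not overlap, 6.70% with the deficient libraries lower and 5.93% with them higher. A log2 fold change below that of Runx2 was found in 8.79% of tested genes and one below that of Satb1 in 5.84%. Counting alone gives a coefficient of variation of 4.89% to 5.45% at the mean counts of these genes, and the observed values were 6.01% and 2.15% for Runx2 and 4.56% and 4.09% for Satb1, in controls and deficient libraries. The spread within a group was thus close to or below what counting gives, and 4 libraries measure it only roughly.

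**Figure D1:**
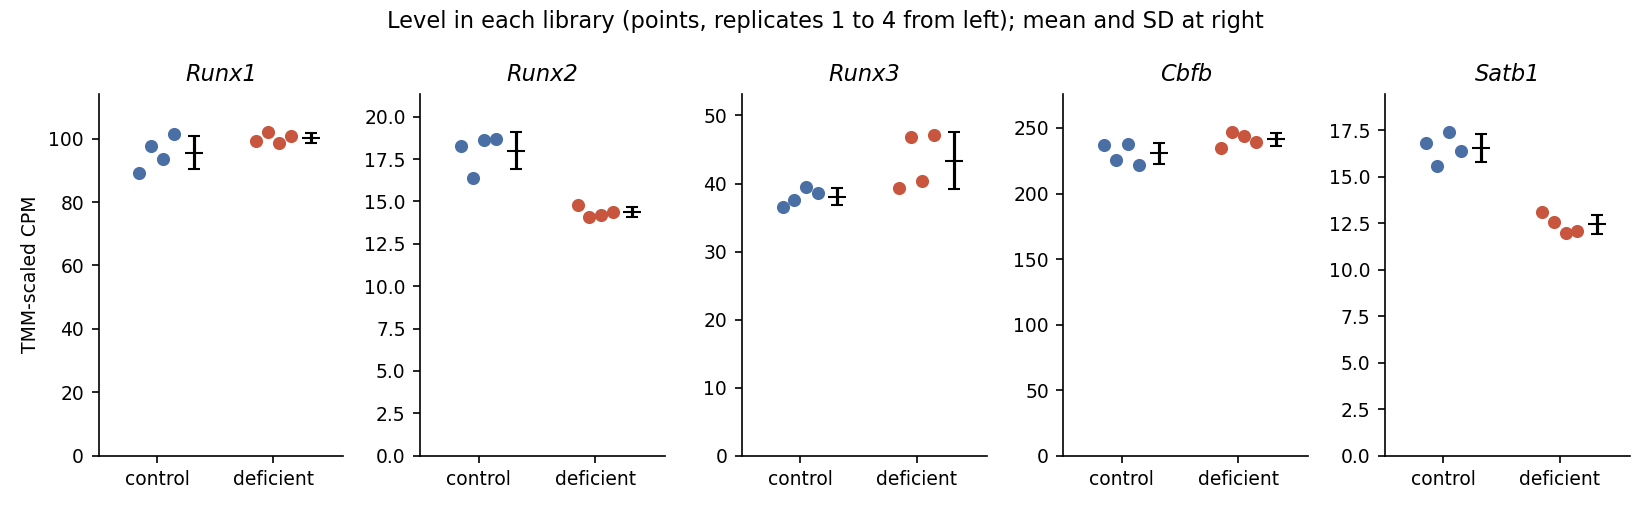
TMM-scaled CPM (y axes from 0, a scale for each gene) of the 5 genes in the 4 control libraries (blue) and the 4 deficient libraries (red), with the mean and SD of each group at the right. Runx2 and Satb1 do not overlap between the groups, and the deficient values of Runx3 form a lower pair near 40 CPM and a higher pair near 47 CPM.

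Runx1, the most studied of the family in blood, had nearly the same level in both genotypes. Runx1 (ENSMUSG00000022952, GRCm38 chromosome 16, 92601466 to 92826149, minus strand) was at 89.3, 97.7, 93.7 and 101.5 CPM in control libraries 1 to 4, and in deficient libraries 1 to 4 it was at 99.4, 102.0, 98.6 and 100.8 CPM. The highest control lay among the deficient libraries, whose values spanned a narrower range than the controls. The means were 95.6 ± 5.24 and 100.2 ± 1.49 CPM (SD, n = 4 per genotype; log2 fold change 0.07, SE 0.05).

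Runx3 leaned the other way from Runx2. Runx3 (ENSMUSG00000070691, GRCm38 chromosome 4, 135120652 to 135177990, plus strand) was at 36.6, 37.6, 39.5 and 38.6 CPM in control libraries 1 to 4, and in deficient libraries 1 to 4 it was at 39.3, 46.8, 40.3 and 47.1 CPM. Deficient 2 and 4 lay above every control, deficient 3 just above control 3, and deficient 1 between control 3 and control 4. The mean was 38.1 ± 1.26 CPM in the controls and 43.4 ± 4.15 CPM in the deficient libraries (SD, n = 4 each), 113.9% of the controls (0.19 on the log2 scale, SE 0.07). Without deficient 2 the log2 fold change was 0.15, and without deficient 4 it was 0.15. The same 2 libraries had the highest summed level of 12 markers of neutrophil precursors. It was 3361.7 CPM in deficient 2 and 3017.9 CPM in deficient 4. The sum was 2792.2 CPM in deficient 1, 1923.4 CPM in deficient 3 and 1617 to 2166.8 CPM in the controls. Most of the sum was Chil3, with means of 1547 CPM in control and 2203.2 CPM in deficient libraries. Elane had means of 58.5 and 98.2 CPM and Mpo of 32.3 and 56.8 CPM. Some other marker lists, though not all, also set these 2 libraries apart. In deficient 2 and 4, conventional dendritic cell markers summed to 247.3 and 287.6 CPM and erythroid markers to 256.8 and 281.9 CPM. In deficient 1 and 3 these sums were 450.5 and 490 CPM, and 444.5 and 483.4 CPM. The controls ranged from 343 to 675.4 CPM and from 413.2 to 725.5 CPM. The part of any of these markers in the Runx3 values was not tested.

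Cbfb, the partner subunit, was the most abundant of the 5. Cbfb (ENSMUSG00000031885, GRCm38 chromosome 8, 105170674 to 105217989, plus strand) was at 237.1, 225.6, 237.6 and 221.9 CPM in control libraries 1 to 4, and in deficient libraries 1 to 4 it was at 235.0, 246.7, 244.0 and 239.5 CPM. The groups overlapped only through deficient 1, which lay below 2 of the controls. The means were 230.6 ± 8.02 and 241.3 ± 5.13 CPM (SD, n = 4 per genotype; log2 fold change 0.07, SE 0.04).

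**Figure D2:**
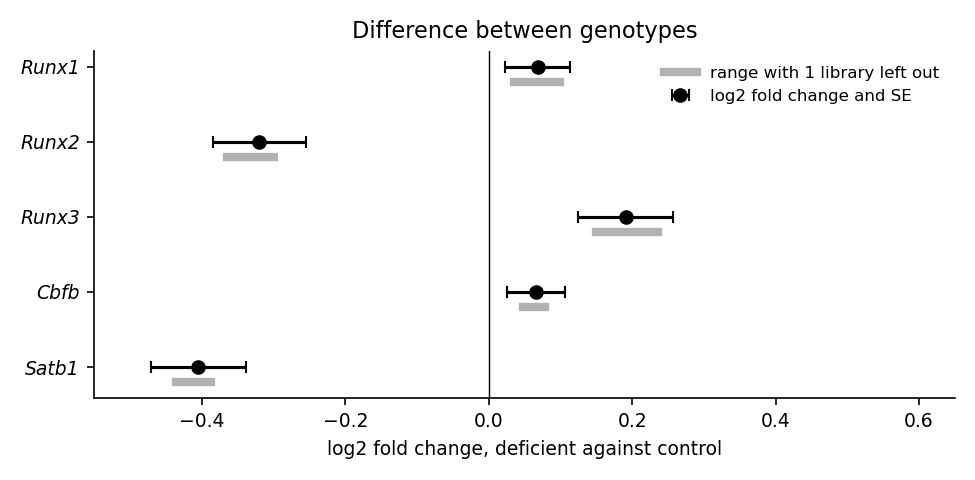
Log2 fold change of deficient against control libraries (x axis) for the 5 genes, with the standard error (black bars) and the range over fits that left out 1 library each (grey). Satb1 and Runx2 lie at -0.41 and -0.32, Runx1 and Cbfb at 0.07 each and Runx3 at 0.19.

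Ratios of raw counts within a library do not depend on how libraries are scaled. The Runx1 to Runx2 ratio was 5.33 ± 0.482 in the controls and 6.96 ± 0.209 in the deficient libraries (SD, n = 4 each), with ranges of 4.87 to 5.96 and 6.70 to 7.21. The Runx3 to Runx2 ratio was 2.12 ± 0.129 against 3.01 ± 0.324, and its lowest deficient value, 2.65, was above the highest control value, 2.30. Both ratios thus stood apart between the genotypes, by the contrast that chose Runx2. The Runx1 to Runx3 ratio overlapped, at 2.37 to 2.63 in control and 2.14 to 2.53 in deficient libraries. Satb1 and Runx2 kept nearly one ratio, at 0.880 to 0.950 in control and 0.838 to 0.889 in deficient libraries.

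**Figure D3:**
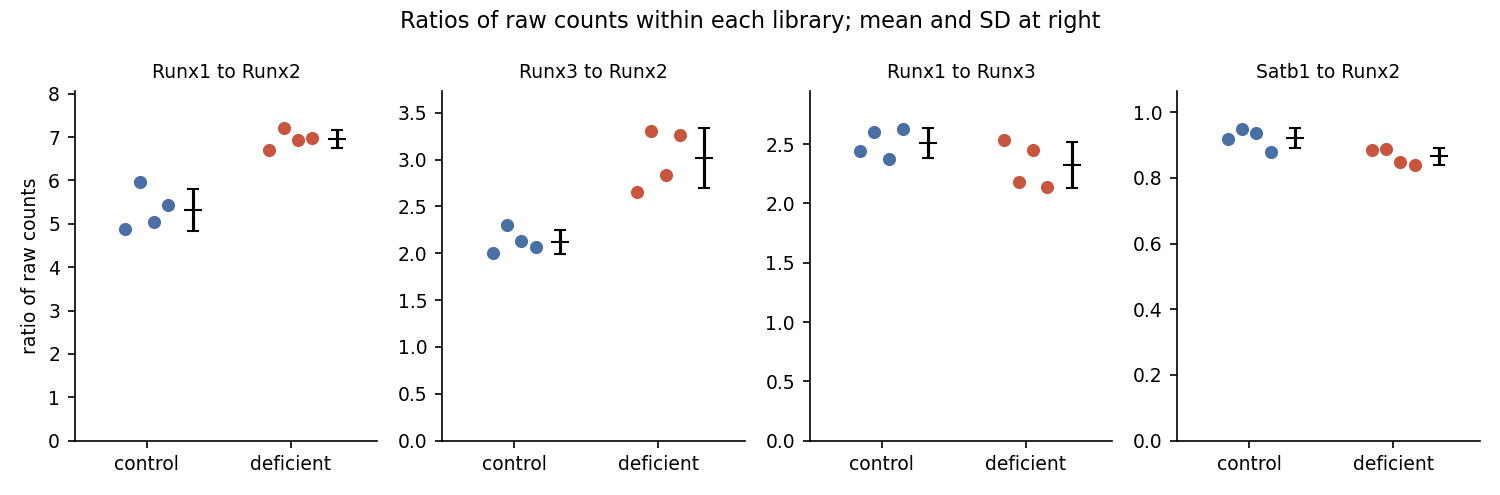
Ratios of raw counts within each library (y axes from 0) for 4 pairs of genes, in controls (blue) and deficient libraries (red), with the mean and SD at the right. The ratios of Runx1 and Runx3 to Runx2 separate the groups, while Runx1 to Runx3 and Satb1 to Runx2 overlap.

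Levels of different genes are compared per kb of annotated exon (GENCODE M21, GRCm38). In the controls Cbfb was at 66.3 ± 2.31 CPM per kb, Runx1 at 7.95 ± 0.436, Runx3 at 7.61 ± 0.252, Runx2 at 2.03 ± 0.122 and Satb1 at 0.870 ± 0.0397 CPM per kb (SD, n = 4). The ranges of Runx1 and Runx3 overlapped in both genotypes, and every other pair of neighbours in this order was apart. Which neighbours overlap depends on the length used, while the order of the control means is the same. Per kb of the longest annotated transcript, Runx1 (16.3 ± 0.894 CPM per kb) stood above Runx3 (9.80 ± 0.325), and Runx2 (2.78 ± 0.167) and Satb1 (2.65 ± 0.121) overlapped in the controls but not in the deficient libraries.

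Per kb of all exons, Runx2 made up 11.6% ± 0.729 of the summed RUNX level in the controls and 8.77% ± 0.552 in the deficient libraries (SD, n = 4 each). Runx1 made up 45.2% ± 1.34 and 44.8% ± 1.64, and Runx3 43.3% ± 0.900 and 46.4% ± 2.17. The Runx2 shares did not overlap, at 10.6% to 12.3% in control and 8.23% to 9.43% in deficient libraries, while those of Runx1 and Runx3 did. The Cbfb level per kb was 3.49 to 4.05 times the summed level of the 3 RUNX genes in control and 3.54 to 3.93 times in deficient libraries, so transcripts of the shared partner outnumbered those of the DNA-binding subunits in every library. With the longest transcript as the length, these ratios were 2.55 to 2.98 and 2.63 to 2.87.

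**Figure D4:**
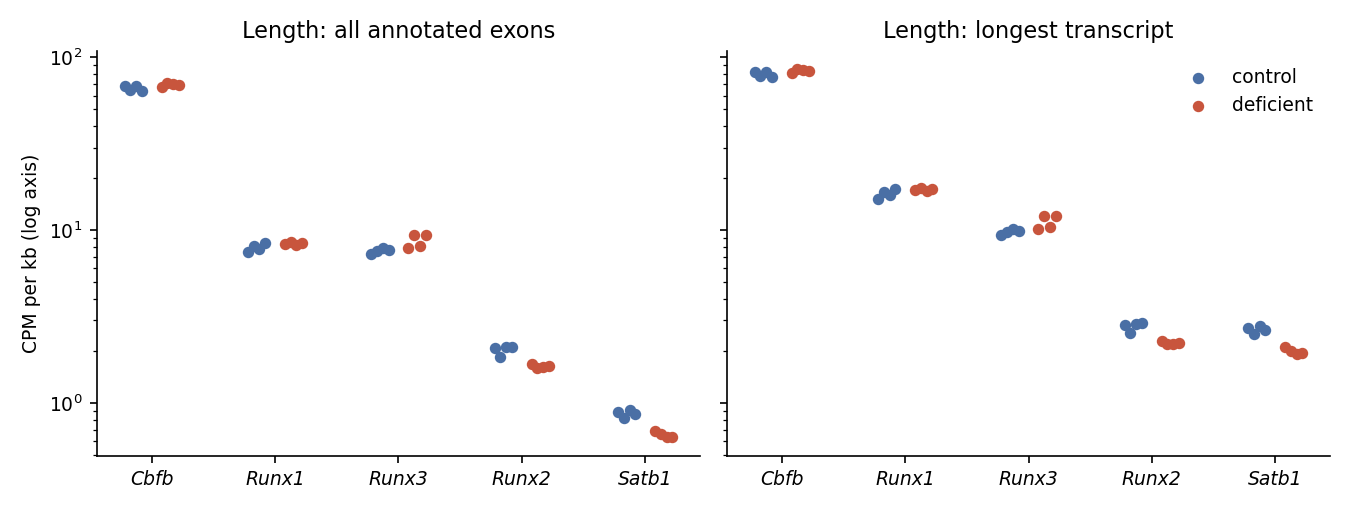
CPM per kb (log axis) of the 5 genes in each control (blue) and deficient (red) library, per kb of all annotated exons at the left and of the longest transcript at the right. Cbfb is highest under both lengths, and Runx1 and Runx3 overlap only at the left.

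Some reads at these loci could belong to other genes, because the sources used here do not give strandedness. Supt3, a subunit of the SAGA coactivator encoded on the strand opposite Runx2, spans its distal promoter but shares no exon base with it, and was at 9.38 ± 1.30 and 9.36 ± 0.435 CPM (SD, n = 4 per genotype; log2 fold change -0.02, SE 0.10, edgeR adjusted p = 0.937). The antisense gene Runx2os1 shares 519 exon bases with Runx2 and had 0, 1, 1 and 2 counts in control libraries 1 to 4, and in deficient libraries 1 to 4 it had 4, 9, 3 and 3, too few to pass the filter. Runx2os2, which lies inside Runx2 with no shared exon base, was at 0.768 ± 0.303 against 0.526 ± 0.129 CPM (SD, n = 4 each; edgeR adjusted p = 0.236). Gm26626, antisense to Runx1 with 106 shared exon bases, had 1 to 6 counts in any library. Satb1 shares 128 exon bases with Gm6934 on the other strand, an exon of which also lies over the Satb1 sequence printed above, and 156 with Gm36931 on its own strand; neither was analysed here.

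The genes whose log2 CPM followed that of Runx2 most closely over the 8 libraries, among 9414 genes with a mean of at least 5 CPM, were Pomgnt1, a glycosyltransferase of dystroglycan (r = 0.986), Sh3bp4, an adaptor of endocytosis (r = 0.978), and BC064078 (r = 0.975). For Satb1 they were Cirbp, a cold-inducible RNA-binding protein (r = 0.982), Zfp868, a zinc finger gene (r = 0.977), and Fam174a (r = 0.975). All 6 were lower in every deficient library, so much of each r is the gap between genotypes. With each group's mean taken out, r was 0.970, 0.801 and 0.846 for the genes nearest to Runx2 and 0.762, 0.623 and 0.836 for those nearest to Satb1. Runx2 and Satb1 themselves had r = 0.974, and 0.75 without the group means. These are descriptions over 8 libraries that share their handling, with the nearest genes picked from all 9414.

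The counts over lists of related genes stand against the same counts over all genes. Of 12938 tested genes, 113 (0.873%) passed the threshold in edgeR, and 6500 were higher and 6438 lower. An unadjusted p under 0.05 in edgeR was found for 3100 (24.0%). DESeq2 called 831 (7.33%) of the 11341 tested genes to which it gave an adjusted p.

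Of 22 tested cofactors that RUNX proteins recruit, 1 passed the threshold in edgeR (0.873% over all genes), Tle4, which rose. The median log2 fold change was 0.04, with 6 at an unadjusted p under 0.05 (24.0% over all genes) and 1 called by DESeq2 (7.33%). Tle4, a corepressor of the Groucho family, was at 48.0 ± 0.497 CPM in the controls and 57.0 ± 2.72 CPM in the deficient libraries (SD, n = 4 per genotype; log2 fold change 0.25, SE 0.05, edgeR adjusted p = 0.0426). The next gene, Ep300, the acetyltransferase p300, had a log2 fold change of 0.12 (SE 0.04, edgeR adjusted p = 0.132), and 12 of the 22 were higher. The call of Tle4 was lost without control 1 (adjusted p = 0.0795), control 3 (0.126), control 4 (0.153) or deficient 4 (0.173).

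Enzymes and cyclins that modify RUNX proteins had 1 of 21 tested genes past the threshold in edgeR (0.873% over all genes), Ccnd3. An unadjusted p under 0.05 was found for 7 (24.0% over all genes), and DESeq2 called 2 (7.33%). Higher were 17 of 21, against 6500 of all 12938 tested genes, and the median was 0.09. Ccnd3, cyclin D3, which binds RUNX1, rose, from 459.8 ± 14.5 CPM in the controls to 597.1 ± 56.8 CPM (SD, n = 4 per genotype; log2 fold change 0.38, SE 0.06, edgeR adjusted p = 0.0292). Hdac4, a class II deacetylase that binds RUNX2, had 0.24 (SE 0.06, edgeR adjusted p = 0.0736). The Ccnd3 call was lost without control 1 (0.0646), control 3 (0.102), control 4 (0.113) or deficient 4 (0.138).

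Partners of SATB1 had 1 of 12 genes past the threshold in edgeR (0.873% over all genes). An unadjusted p under 0.05 was found for 3 (24.0% over all genes), and DESeq2 called 2 (7.33%). Of the 12, 10 were higher, against 6500 of all 12938 tested genes, and the median was 0.04. Baz1a, the ACF1 subunit of an ISWI chromatin remodeler, rose, from 204.7 ± 7.23 CPM in the controls to 244.8 ± 9.41 CPM (SD, n = 4 per genotype; log2 fold change 0.26, SE 0.04, edgeR adjusted p = 0.0292). Mta2, a subunit of the NuRD deacetylase complex, had 0.14 (SE 0.04, edgeR adjusted p = 0.0863). The Baz1a call was lost without control 1 (0.0646), control 3 (0.093), control 4 (0.115) or deficient 4 (0.138). Hdac1, Kat2b and Crebbp count in both this list and the RUNX cofactors.

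Genes known as RUNX targets in blood cells had 0 of 10 tested past the threshold in edgeR, 5 at an unadjusted p under 0.05 (24.0% over all genes) and 4 with DESeq2 (7.33% over all genes). Their median was -0.01, with 4 higher and 6 lower. Elane, neutrophil elastase, was at 58.5 ± 9.62 CPM in the controls and 98.2 ± 17.3 CPM in the deficient libraries (SD, n = 4 per genotype; log2 fold change 0.75, SE 0.16, edgeR adjusted p = 0.0654), and Mpo, myeloperoxidase, at 32.3 ± 5.51 and 56.8 ± 11.8 CPM (0.82, SE 0.18, edgeR adjusted p = 0.0736). Both are also markers of neutrophil precursors. Without deficient 3, 4 of the 10 passed in edgeR, in a fit where 479 of all genes passed, against 113 with every library. Of the RUNX2 targets of bone, only Spp1, osteopontin (log2 fold change 0.45, SE 0.16, edgeR adjusted p = 0.128), and Mmp9, a gelatinase (0.11, SE 0.20, edgeR adjusted p = 0.761), could be tested; 0 passed in edgeR and in DESeq2, and 1 had an unadjusted p under 0.05.

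Genes known as SATB1 targets in lymphocytes and progenitors had 0 of 6 past the threshold in edgeR, 2 at an unadjusted p under 0.05 (24.0% over all genes) and 1 with DESeq2, with a median of 0.02. Zbtb7b, the zinc finger factor ThPOK (log2 fold change 0.22, SE 0.05, edgeR adjusted p = 0.0585), and Myc, the growth regulator (0.31, SE 0.11, edgeR adjusted p = 0.132), came nearest. The SMAD list, whose proteins form complexes with RUNX factors downstream of TGF-beta and BMP, had 0 of 15 in edgeR, 3 at an unadjusted p under 0.05, 1 with DESeq2 and a median of 0.01. Its nearest genes were the receptors Tgfbr2 (log2 fold change -0.32, SE 0.10, edgeR adjusted p = 0.106) and Acvr1b (0.11, SE 0.04, edgeR adjusted p = 0.138). Stem cell factors that share binding sites with RUNX1 had 0 of 4 past the threshold in edgeR and in DESeq2, 2 at an unadjusted p under 0.05 and a median of -0.04, with Lmo2 at -0.16 and Lyl1 at -0.15 (edgeR adjusted p = 0.124 and 0.168).

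**Figure D5:**
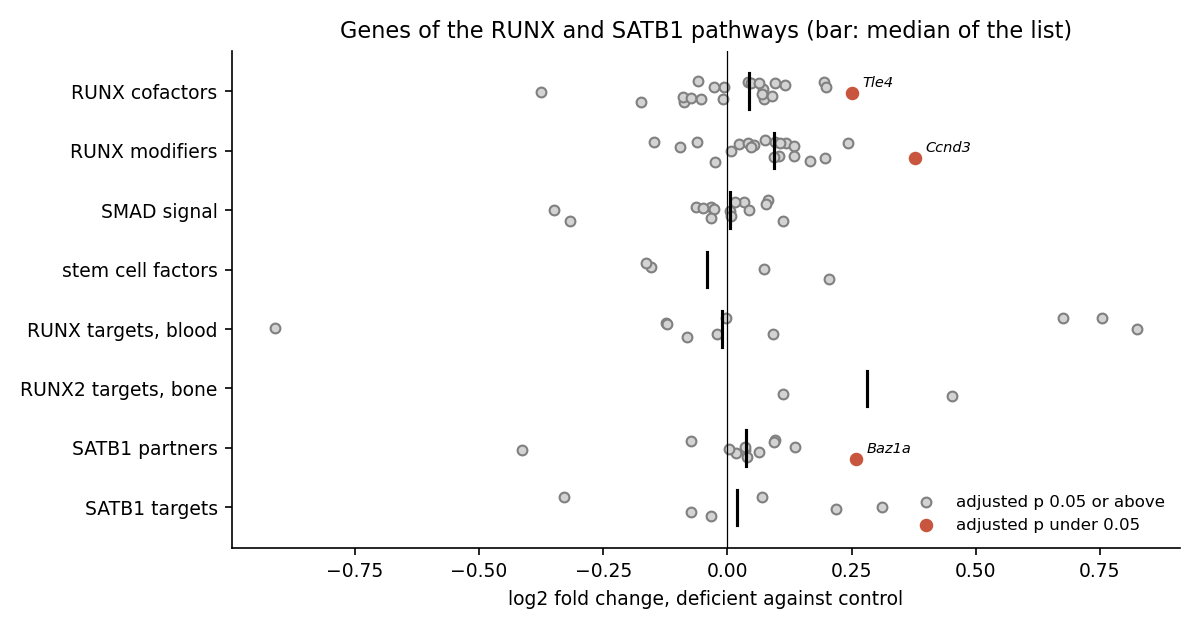
Log2 fold change of deficient against control libraries (x axis) for every tested gene of 8 pathway lists (points; height within a list is random), with the median of each list as a bar. Tle4, Ccnd3 and Baz1a, in red, had an adjusted p under 0.05 with edgeR.

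The labelled cell type was checked against 12 markers of classical monocytes, all of which were measured. They summed to 41506.9 to 45222.7 CPM in control and 31411.2 to 33225.2 CPM in deficient libraries. The largest of them, Lyz2, the gene that carries the Cre insertion, fell (log2 fold change -1.02, SE 0.05, edgeR adjusted p = 2.51e-06). Its means were 21035.5 CPM in control and 10379.6 CPM in deficient libraries, which is most of the drop in the sum. Of the 12 markers, 7 rose and 5 fell, and the list median was 0.037 (log2 scale). Only Lyz2 passed the threshold in edgeR. An unadjusted p under 0.05 was found for 7 (24.0% over all genes), and DESeq2 called 3 (7.33%).

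Other cells of the marrow also express these members, so their markers are given beside Runx2 and Satb1. Their counts too stand against 24.0% of all genes at an unadjusted p under 0.05 and 7.33% past the threshold with DESeq2. Plasmacytoid dendritic cell markers had 0 of 8 past the threshold in edgeR and in DESeq2 and 1 at an unadjusted p under 0.05; 6 of 8 were lower (median -0.41 on the log2 scale), and the list summed to 189.3 to 217.9 CPM in control and 169.7 to 202.2 CPM in deficient libraries. The largest parts of that sum were Tcf4 (60.1 to 69.5 CPM in control and 55.7 to 65.1 CPM in deficient libraries) and Bst2 (51.6 to 57.9 and 52.2 to 64.9 CPM). Siglech, the defining surface marker of these cells, had 12 to 82 counts per control and 23 to 25 per deficient library. At 0.541 to 2.66 CPM in control and 0.748 to 1.35 CPM in deficient libraries, Siglech made up little of the sum. B cell markers were lower in 10 of 10 tested genes (median -0.39; 455.8 to 626.3 against 415.1 to 476.1 CPM summed), with 0 past the threshold in edgeR, 3 at an unadjusted p under 0.05 and 1 with DESeq2. T and NK cell markers summed to only 6.68 to 9.73 and 6.78 to 9.24 CPM, and Cd3d had 0 to 8 and 1 to 2 counts. The part of these cells in the lower Runx2 and Satb1 was not tested.

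The remaining marker lists had 0 genes past the threshold in edgeR, and are given with the same counts, unadjusted before DESeq2. These too stand against 24.0% and 7.33% of all genes. Conventional dendritic cell markers had 8 of 9 lower (median -0.52, 5 at an unadjusted p under 0.05, 2 with DESeq2), erythroid markers 8 of 8 lower (-0.71, 7 and 0) and basophil, mast cell and eosinophil markers 5 of 6 lower (-0.78, 2 and 0). Neutrophil precursor markers were higher in 12 of 12 (0.52, 6 and 3) and mature neutrophil markers in 5 of 9 (0.11, 4 and 1). Stem and progenitor markers had 3 of 5 lower (-0.14, 1 and 0), megakaryocyte markers 2 of 2 higher (0.03, 0 and 0) and stromal and bone markers 1 of 1 higher (0.17, 0 and 0), the last summing to at most 0.877 CPM in any library. The most abundant marker was Ighm for B cells, Tcf4 for plasmacytoid and Cd74 for conventional dendritic cells, Thy1 for T and NK cells, Hbb-bs for erythroid cells, Prg2 for basophils, mast cells and eosinophils, Chil3 for neutrophil precursors, Csf3r for neutrophils, Myb for progenitors, Clec1b for megakaryocytes and Cdh5 for stroma. No marker in the table was at 0 in every library. Of the 11 stromal and bone markers, 9, among them Col1a1, Bglap and Sp7, were not analysed here.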

How the data were processed

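The deposited table, per its file headers, holds the authors' raw counts per gene and 8 columns of normalized values that were not used. The submitters' processing notes list GRCm38, cutadapt, STAR 2.7.3a, HTSeq 0.12.4 and DESeq2 but no roles. No listed gene has a highest count below 6. Cre, at most 0.0033% of a library, was kept apart. Per the labels' protocols, libraries were polyadenylated, single-read and without stated molecular identifiers, so the floor of 3 counts covers counting error only. Chi-square per degree of freedom between replicates was 2.88 to 23.4. Running numbers in the titles separate controls (low) from deficient samples (high), so an order behind them cannot be told apart from genotype.

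edgeR 4.0.16 in R 4.3.3 was run on genes passing filterByExpr (minimum count 10, minimum total 15), with TMM scaling, robust quasi-likelihood and genotype alone; p-values are two-sided, Benjamini-Hochberg adjusted over 12938 genes, and SE comes from the F statistic. DESeq2 1.42.0, its size factors, no filter and left-out libraries were alternatives. The method was tested on simulated data.

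GENCODE M21 gave lengths and coordinates on GRCm38 (12920 tested identifiers matched) and RefSeq (GRCm38.p6) the promoters, with windows for all 5 members. Members, 8 pathway lists and 12 marker lists were chosen with earlier results of these data known. Named list genes are those past the threshold (up to 4), or the 2 of smallest p if under 2 passed; near genes are the 3 with the highest r on log2 CPM (prior count 2). Each marker list's most abundant gene is named too. Siglecf appears in the table as Siglec5.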

Additional observations from a re-analysis of the deposited data

Results flagged for a closer look

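Of 64 groups of 4 values (32 named genes in each genotype), 4 held a sample far from the rest, and chance flags about 1 in 20 such groups. Control 2 had the lowest Runx2, 16.4 CPM, with the remaining controls between 18.3 and 18.7 CPM. Pomgnt1, the gene most like Runx2, was likewise low in control 2 (15.6 CPM, with the rest between 18.7 and 18.9 CPM). Pomgnt1 was picked for following Runx2 over these same libraries, so its flag is not separate from that of Runx2. Control 1 had 333 CPM of Ep300, with the rest between 359 and 364.1 CPM. Runx2os2 had 0.333 CPM in deficient 2, which rests on 10 counts, with the rest of its group between 0.585 and 0.602 CPM.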

How the results depend on the processing

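No paired analysis was possible because the labels give the groups no shared replicate numbers. The log2 fold changes of the 5 members moved by less than the spread between replicates under every alternative tried. With 1 library left out they ranged from -0.436 to -0.387 (Satb1), -0.365 to -0.299 (Runx2), 0.149 to 0.236 (Runx3), 0.035 to 0.099 (Runx1) and 0.048 to 0.079 (Cbfb). Groups that do not overlap fix that sign, so it is no sign of stability for Satb1 and Runx2. Over the same fits, 1 to 522 genes passed the threshold (0 to 225 higher, 1 to 311 lower). Members past it numbered 0 to 3 of the RUNX cofactors, 0 to 2 of the RUNX modifiers and of the SATB1 partners, 0 to 4 of the RUNX blood targets, and 0 to 1 of the SMAD, stem cell and SATB1 target lists. List medians ranged from -0.179 to -0.021 (stem cell factors), 0.011 to 0.383 (bone targets) and 0.02 to 0.061 (cofactors). For the modifiers they ranged from 0.05 to 0.096 and for the SATB1 partners from 0.028 to 0.052. Those that turned sign were the blood targets (-0.052 to 0.028), the SMAD list (-0.032 to 0.017) and the SATB1 targets (-0.132 to 0.093). DESeq2 called 831 genes (395 higher, 436 lower). With the least deep library of either group left out, an alternative added after the data were seen, 1 gene passed (0 higher, 1 lower), 0 of the cofactors, modifiers and SATB1 partners did, and the blood target median was -0.058. With no filter the stem cell median was -0.157, with more genes tested. Per kb of the longest transcript, control levels were 16.3 (Runx1), 2.78 (Runx2), 9.8 (Runx3), 79.8 (Cbfb) and 2.65 (Satb1) CPM per kb, since that length is shorter. Other causes were not tested. Depth limits Runx2 and Satb1 most, at 206 to 576 counts a library.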
